A study of Mus musculus with 12 samples.

Results

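Acetylation of lysine 27 on histone H3 (H3K27ac) was compared between fibro-adipogenic progenitors (FAPs) of old and of young dystrophic mice that had received vehicle only. The comparison rests on 2 of the 12 samples of the series, 1 chromatin immunoprecipitation sequencing (ChIP-seq) library for each age. Both peak lists were used over the stretch that they cover together, which is chromosomes 1 and 2 and chromosome 3 up to position 122275556 of GRCm38. The stretch held 13618 of the 77135 complete peaks read from all 8 peak lists. Peaks of the young and old lists that overlapped by at least 1 bp were joined, which gave 8069 regions.

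Both groups were C57Bl6 mdx mice, which lack dystrophin and serve as a model of Duchenne muscular dystrophy. The young mice were 1.5 months old and the old mice 12 months old, and each received daily intraperitoneal saline for 15 days before the muscle cells were sorted. The other groups of the series were given trichostatin A (TSA), a histone deacetylase inhibitor, at 0.6 mg/kg/day on the same schedule, and a further mark, acetylation of lysines 9 and 14 (H3K9/14ac), was profiled in all groups. How many animals went into a library and how the cells were gated is stated nowhere in the labels. With 1 library for each age, age cannot be told apart from any other difference between the libraries, and no test between the ages was made.

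H3K27ac is deposited by the acetyltransferases p300 and CBP and removed by histone deacetylases, and it marks active promoters and active enhancers. FAPs are mesenchymal cells that lie between muscle fibres. They support muscle stem cells during repair, and in dystrophic muscle they are a source of scar-forming fibroblasts and of fat cells.

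The sequences below come from start sites that had a peak at one age only. They were picked from 8 old-only and 143 young-only starts after their values were seen, so differences among them do not describe these classes. Cdc25b, a phosphatase that drives entry into mitosis, and S100a5, a calcium-binding protein gene, had a peak within 1000 bp of the start in old only, with 104 and 102 tags. Ppp1r16b, an endothelium-enriched regulatory subunit of protein phosphatase 1, and Gli2, a transcription factor of Hedgehog signalling, had one in young only, with 342 and 271 tags. Each line gives the 250 bases before the start, 5′ to 3′ on the gene's strand, from RefSeq (GRCm38.p6), with matches to the searched motifs in capitals. The positions are chr2:131186698-131186947 (plus strand) for Cdc25b, chr3:90608272-90608521 (plus) for S100a5, chr2:158666483-158666732 (plus) for Ppp1r16b and chr1:119053620-119053869 (minus) for Gli2.
Cdc25b: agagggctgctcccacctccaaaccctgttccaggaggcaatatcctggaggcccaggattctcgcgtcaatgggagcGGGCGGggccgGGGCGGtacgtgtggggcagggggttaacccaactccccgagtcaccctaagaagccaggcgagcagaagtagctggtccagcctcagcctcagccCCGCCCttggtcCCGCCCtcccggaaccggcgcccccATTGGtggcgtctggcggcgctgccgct
S100a5: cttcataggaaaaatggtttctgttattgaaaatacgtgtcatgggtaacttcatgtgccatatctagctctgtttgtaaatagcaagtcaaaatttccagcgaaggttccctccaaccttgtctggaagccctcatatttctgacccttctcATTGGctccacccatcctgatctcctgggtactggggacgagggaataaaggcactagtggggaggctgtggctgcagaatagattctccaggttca
Ppp1r16b: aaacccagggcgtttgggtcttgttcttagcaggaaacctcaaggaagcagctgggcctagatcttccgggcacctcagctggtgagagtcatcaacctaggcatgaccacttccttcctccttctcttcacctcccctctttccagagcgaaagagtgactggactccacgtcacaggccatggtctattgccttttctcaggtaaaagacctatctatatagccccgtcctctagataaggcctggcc
Gli2: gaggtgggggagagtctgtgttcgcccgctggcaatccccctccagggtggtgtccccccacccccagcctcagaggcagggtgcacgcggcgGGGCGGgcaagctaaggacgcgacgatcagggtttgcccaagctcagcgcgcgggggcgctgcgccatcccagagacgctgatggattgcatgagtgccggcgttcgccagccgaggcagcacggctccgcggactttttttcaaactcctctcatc
The motifs were TGACTCA (AP-1), TGACGTCA (the cyclic AMP response element), GGGCGG (the GC box), TATAAA and CCAAT, each searched on both strands. Cdc25b held 4 GC boxes and a reverse CCAAT, Gli2 a single GC box, S100a5 a reverse CCAAT, and Ppp1r16b none of the 5 motifs. CpG dinucleotides numbered 18 in Cdc25b, 22 in Gli2, 3 in S100a5 and 5 in Ppp1r16b. A match of letters is a description and no evidence of binding.

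In the stretch the young list held 7891 peaks with 1659160 tags over 8.05 Mb, and the old list 5727 peaks with 952786 tags over 4.83 Mb. These are 18.3% and 17.9% of the peaks counted in the list headers. A tag is a sequenced fragment end counted in a peak. The whole-number counts were taken as not scaled for depth, and the headers give no library totals. The median region shared by both lists held 0.665 times as many tags in old as in young, a log2 ratio of -0.59. All ratios below are therefore log2(old tags / young tags) minus this median and are called centred values. The zero of this scale is the middle of the shared regions and not an absolute level of the mark. Scaling by the total tags in peaks instead would raise every centred value by 0.21.

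Far more acetylated regions were seen in young alone than in old alone. Of 7733 regions with a young peak, 3341 had no old peak, which is 43.2% (95% exact Clopper-Pearson interval 42.1 to 44.3, counting error only). Of 4728 regions with an old peak, 336 had no young peak, or 7.11% (6.39 to 7.88). The remaining 4392 regions were shared. On chromosomes 1, 2 and 3 the share of young regions without an old peak was 44.4%, 42.0% and 43.6%, and the median log2 tag ratio was -0.58, -0.59 and -0.59. A region without a peak did not reach the authors' calling threshold; its tags are unknown and need not be 0.

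Regions seen in young alone were mainly weak ones. Their median was 62 tags, against 223 young tags in shared regions. Of young regions under 50 tags, 89.4% had no old peak. This share was 70.7% at 50 to 99 tags, 34.3% at 100 to 199, 8.02% at 200 to 299 and 1.13% at 300 to 499. Only 1 of the 810 regions with 500 or more young tags lacked an old peak. Scaled by the median ratio, 1359 of the 3341 lost regions (40.7%) would hold fewer old tags than 37, the 5th percentile of the regions called in old. Another 83 would exceed 132, the median of those regions. Whether lower sequencing depth or lower acetylation in old keeps regions from being called cannot be told apart here.

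Within classes of young tags the share also differed by position. A start site here means 1000 bp either side of a RefSeq gene start. Among young regions of 100 to 199 tags, 16.6% (13.3 to 20.2) of the 477 at a start site had no old peak, against 40.6% (38.0 to 43.3) of the 1337 elsewhere. Median young tags in this class were 143 at start sites and 137 elsewhere. At 200 to 299 tags the shares were 1.35% (0.439 to 3.12) and 12.7% (9.99 to 15.9), at medians of 244 and 243 tags. Start sites held 44.7% of the shared regions, 12.9% of the lost and 14.0% of the gained regions. Within genes away from starts lay 57.2% of lost, 48.5% of gained and 32.8% of shared regions.

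**Figure D1:**
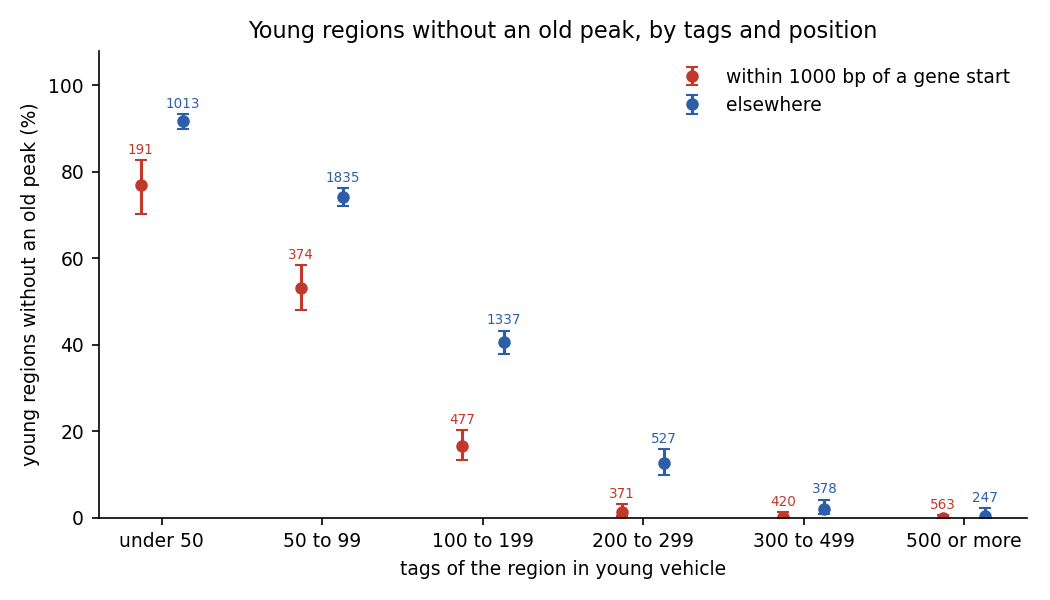
Share of young regions without an old peak (y axis, percent) by tags in the young library (x axis), for regions within 1000 bp of a gene start (red) and elsewhere (blue). Bars are 95% exact intervals for counting error and the small numbers count regions; the share falls with tags at both positions and is lower at start sites in every class, from 77.0% against 91.7% under 50 tags to 0 of 563 (upper limit 0.653%) against 1 of 247 at 500 or more.

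Start sites themselves were mostly kept. Of the 3789 protein-coding genes in the stretch, 3189 had a listed start. Peaks marked 1596 of these starts in young and 1461 in old, and 1453 of them in both. A young mark without an old one was found at 143 starts, and the background share of this call was 8.96%. An old mark without a young one was found at 8 starts (0.548%). Besides Cdc25b and S100a5 these 8 were Sord (sorbitol dehydrogenase), Bend6, Camk1d, Fmo6, Pogk and D630003M21Rik, with 35 to 87 tags. Among the 143 were the Notch ligand gene Dll4, Gli2, the chemokine receptor gene Cxcr4, the long pentraxin gene Ptx3 and the replication helicase gene Mcm3.

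Promoters of starts marked at both ages were rich in CpG, with a median of 17 in 250 bases. This median was 13 at the 143 young-only starts, 3 at the 1585 unmarked starts and 6 over all 32851 promoters of the table. The GC box was found in 61.3% of promoters marked at both ages, in 53.1% of young-only, in 23.2% of unmarked and in 32.7% of all promoters. TATAAA ran the other way, with 4.96%, 6.29%, 20.1% and 12.4%. AP-1 letters were in 3.58%, 2.80%, 5.93% and 4.46%, the cyclic AMP element in 2.34%, 0%, 0.631% and 1.55%, and CCAAT in 35.1%, 37.1%, 32.8% and 33.8%. The 8 old-only promoters had a median of 20.5 CpG. The GC box was in 75% of them, the cyclic AMP element and CCAAT in 25% each, and TATAAA and AP-1 letters in 0%. They are too few to set against the other classes.

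The strongest region seen in young alone lay in Egfl7, which encodes a secreted factor of blood vessel growth. It spanned chr2:26588460-26591688 and held 502 young tags. Next came regions in Wwtr1, the gene of the Hippo pathway coactivator TAZ, with 447 tags (chr3:57540486-57542740), and 4676 bp from Cryzl2 with 413. Others in the 15 strongest lay in Niban2 (358 tags), in the ephrin receptor gene Epha4 (331), in Casp8, an initiator caspase of the death receptor pathway (292), in Nfe2l2, the antioxidant response factor NRF2 (285), and 11712 bp from Dll4 (285). All 15 of these regions had a peak in both TSA libraries of the mark, young and old.

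The strongest gained regions were smaller. The largest lay in Gstm1, a glutathione S-transferase gene, at chr3:108015039-108016279 with 156 old tags. A gained region of 145 tags covered a start of Hsd11b1, whose enzyme regenerates active glucocorticoid inside cells (chr1:193242743-193243704). Further ones lay in Fign (126), Hmcn2 (120), Pam (113) and Plekha6 (102), and 6270 bp from Cst3, the cystatin C gene (105). Of the 15 strongest gained regions, each had a peak in the old TSA library.

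Most shared regions lay within 2-fold of the median ratio. The middle 50% of centred values ran from -0.29 to 0.29, and the extremes were -3.05 and 2.49. At least 2-fold higher in old were 109 of 4392 shared regions (2.48%), and at least 2-fold lower were 220 (5.01%). The values nearest the 2-fold line were 1.003 (39 young and 52 old tags) and 0.998 (155 and 206) on the high side, and -1.004 (211 and 70) and -0.9996 (583 and 194) on the low side. Scaled by total tags the balance turned, with 226 higher and 133 lower regions, so 33.1% of called regions were higher with the median and 63.0% with the totals.

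Called length differed along with the calls. It was shorter in old in 86.2% of shared regions, with medians of 1184.5 bp in young and 849.5 bp in old. In the 220 lower regions the median length went from 1372 bp in young to 310 bp in old, while tags per kb were 152 and 160. In the 109 higher regions it went from 454 to 736 bp, with 143 and 145 tags per kb. Tags of a shared region were counted only inside its called peaks, so those outside them are unknown.

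**Figure D2:**
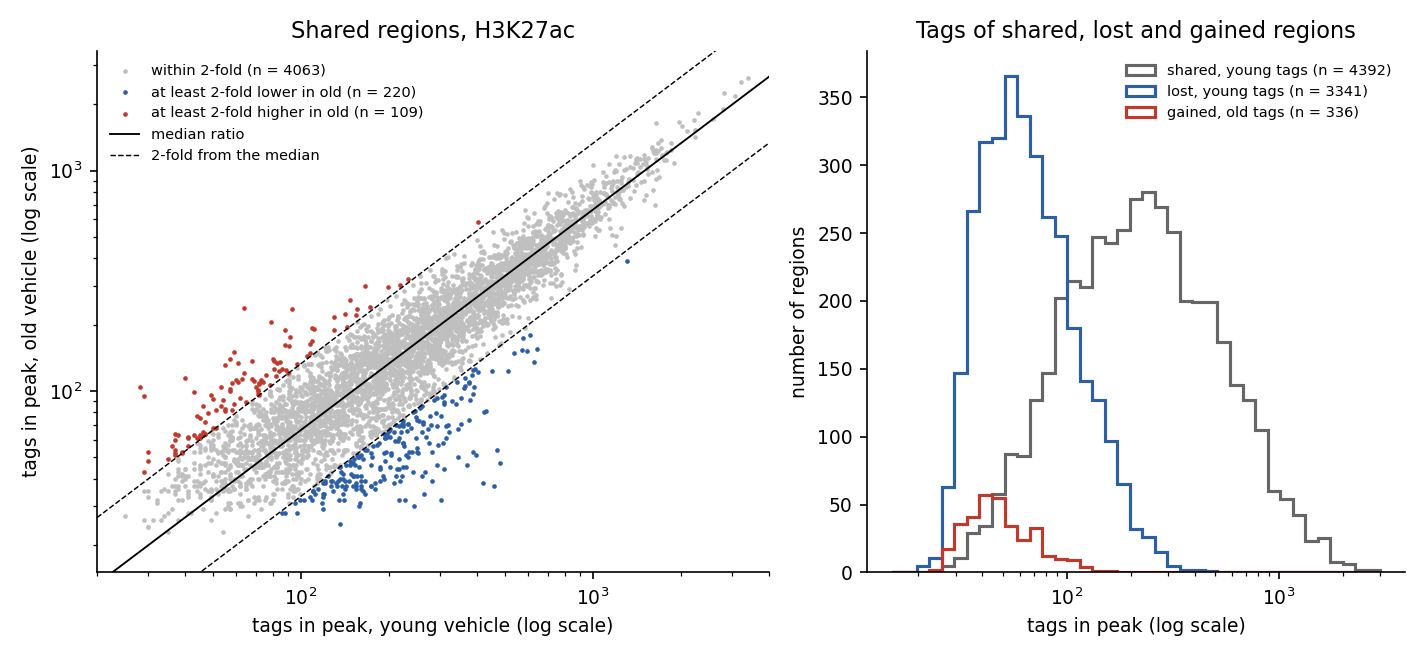
Left, tags in each of the 4392 shared regions in young (x) and old (y) vehicle libraries, both on log axes, with the median ratio as a solid line and 2-fold distances as dashed lines; 109 regions (red) lie above and 220 (blue) below. Right, number of regions by tags (log axis) for shared, lost and gained regions, whose medians are 223, 62 and 46 tags.

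The region with the highest centred value lay 20762 bp from Cd46, at chr1:195017098-195018209, with 64 young and 239 old tags (2.49, 95% counting interval 2.09 to 2.91). A region next to Atf3, a stress-induced transcription factor gene, went from 79 to 205 tags (1.96, 1.58 to 2.36). The start of Nacc2 went from 59 to 150 (1.93), an intragenic region of Aff3 from 93 to 235 (1.93), and one in Myoc, which encodes the secreted glycoprotein myocilin, from 57 to 139 (1.87). Regions in Hmcn2, Lmo2, Nav1, Plekha6 and Il12a were also among the 15 highest.

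Lowest was a region inside F11r, the gene of junctional adhesion molecule A, at chr1:171440550-171442976, with 459 young and 37 old tags (-3.05, -3.57 to -2.56). The called length of this region was 2427 bp in young and 196 bp in old, with 189 tags per kb in both. A region in Rrbp1 held 420 and 38 tags (-2.88) and one in Niban2 482 and 47 (-2.77). Also among the 15 lowest, Cd44, the hyaluronan receptor, had a region of 301 and 32 tags (-2.65), the integrin gene Itgav one of 243 and 30 (-2.43), Itga6 one of 370 and 46 (-2.42), and the semaphorin co-receptor gene Nrp2 one of 216 and 32 (-2.17). A region in Fbn1 held 310 and 44 tags (-2.23).

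Tags were then summed over each gene and 10000 bp on either side, called its window, and windows with at least 100 tags in both libraries together were compared. Peaks were found at both ages in 2147 windows, in young only in 184 and in old only in 10. Of 2138 windows compared, 26 (1.22%) were at least 2-fold higher in old and 142 (6.64%) at least 2-fold lower. The median window stood at -0.17, with 631 above 0 and 1507 below (70.5%). With tags of overlapping regions only, 34 windows were lower. With centring on total tags 78 were lower and 39 higher, and the median window stood at 0.05. Neighbouring genes can share peaks, so windows are not independent. Errors given with window values are counting standard errors.

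Gene windows with the highest values held few tags. Nacc2, a transcriptional repressor gene, held 59 young and 209 old tags (2.41 ± 0.21). Plekha6 held 216 and 532 (1.89 ± 0.12), and 6 of its 7 regions were gained or higher. Aff3, of a gene family of transcription elongation factors, held 498 and 875 (1.40 ± 0.08), with 6 of 10 regions gained or higher. Of all 8069 regions, 336 were gained and 109 higher. These windows were picked for their high ratios, so counts of gained or higher regions within them are no separate support. The window of Myocos, which overlaps Myoc, held 309 and 619 (1.59 ± 0.10). Also among the 15 highest were Il12a, an interleukin 12 subunit gene (49 and 96), the glutathione S-transferase gene Gsta3 (50 and 92), Cd302 (141 and 224) and Cyp27a1, a sterol hydroxylase gene (199 and 295, 1.16 ± 0.13). In the TSA libraries 23 of the 24 higher windows that could be compared there were also above 0, with a median of 1.14, while 43.9% of all windows were. Of the lower windows, 42 of 135 were above 0 there, with a median of -0.28.

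The lowest windows held more tags in young. Nes, which encodes the intermediate filament protein nestin, held 721 young and 56 old tags (-3.10 ± 0.20), and 7 of its 8 regions were lost. Among all young regions 43.2% were lost, and Nes was picked for its low ratio, so this count is no separate support. St8sia4, a polysialyltransferase gene, held 988 and 91 (-2.85 ± 0.16). Nfatc2, a calcineurin-regulated transcription factor gene, held 376 and 47 (-2.41 ± 0.22), and Ppp1r16b 1777 and 241 (-2.29 ± 0.10). The adaptor gene Nck2 held 544 and 88 (-2.04 ± 0.17) and the kinase gene Stk39 469 and 64 (-2.29 ± 0.19). Necab3 had the lowest value of all, -5.57 ± 0.73, but its window only touched the edge of an old peak (279 and 3.91 tags).

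Whole windows had peaks at 1 age only in a further set. Tspan18, a tetraspanin gene, held 684 young tags in 8 regions and no old peak. Nr5a2, a nuclear receptor gene, held 404 in 5 regions, and Ptx3, which encodes a soluble pattern receptor and matrix organiser, held 251. These 3 windows also had no peak in the old TSA library, while the young TSA library held 597, 367 and 169 tags there. Eya2, a transcriptional coactivator gene of muscle and other development, held 218 old tags in 3 regions and none in young. Its window was empty in young TSA and held 610 tags in old TSA. Fmod, the gene of the collagen-binding proteoglycan fibromodulin, and Spi1, the gene of the myeloid factor PU.1, held 43 and 36 old tags and no young peak. In old TSA they held 104 and 217 tags, and in young TSA neither had a peak.

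Several loci held many regions, to be read against the 43.2% lost among all young regions and the 7.11% gained among all old regions. Away from start sites the lost share was higher in every class of young tags, so 43.2% is a low mark for regions inside genes. These loci were picked after their values were seen, so their counts are no separate support. Fbn1, the fibrillin-1 gene of elastic microfibrils, had 42 regions in its window, of which 26 were lost, 3 lower and 1 gained, and its start kept a peak. Fndc3b lost 25 of 43 regions and Col3a1, the type III collagen gene, 20 of 30. In Egfl7, 3 of 8 regions were lost, a share below that of all young regions. Gsn, the gene of the actin-severing protein gelsolin and a FAP transcript, had 11 regions, of which 5 were gained, 1 higher and none lost. In Myoc, 2 of 6 regions were gained and 2 higher, with none lost.

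**Figure D3:**
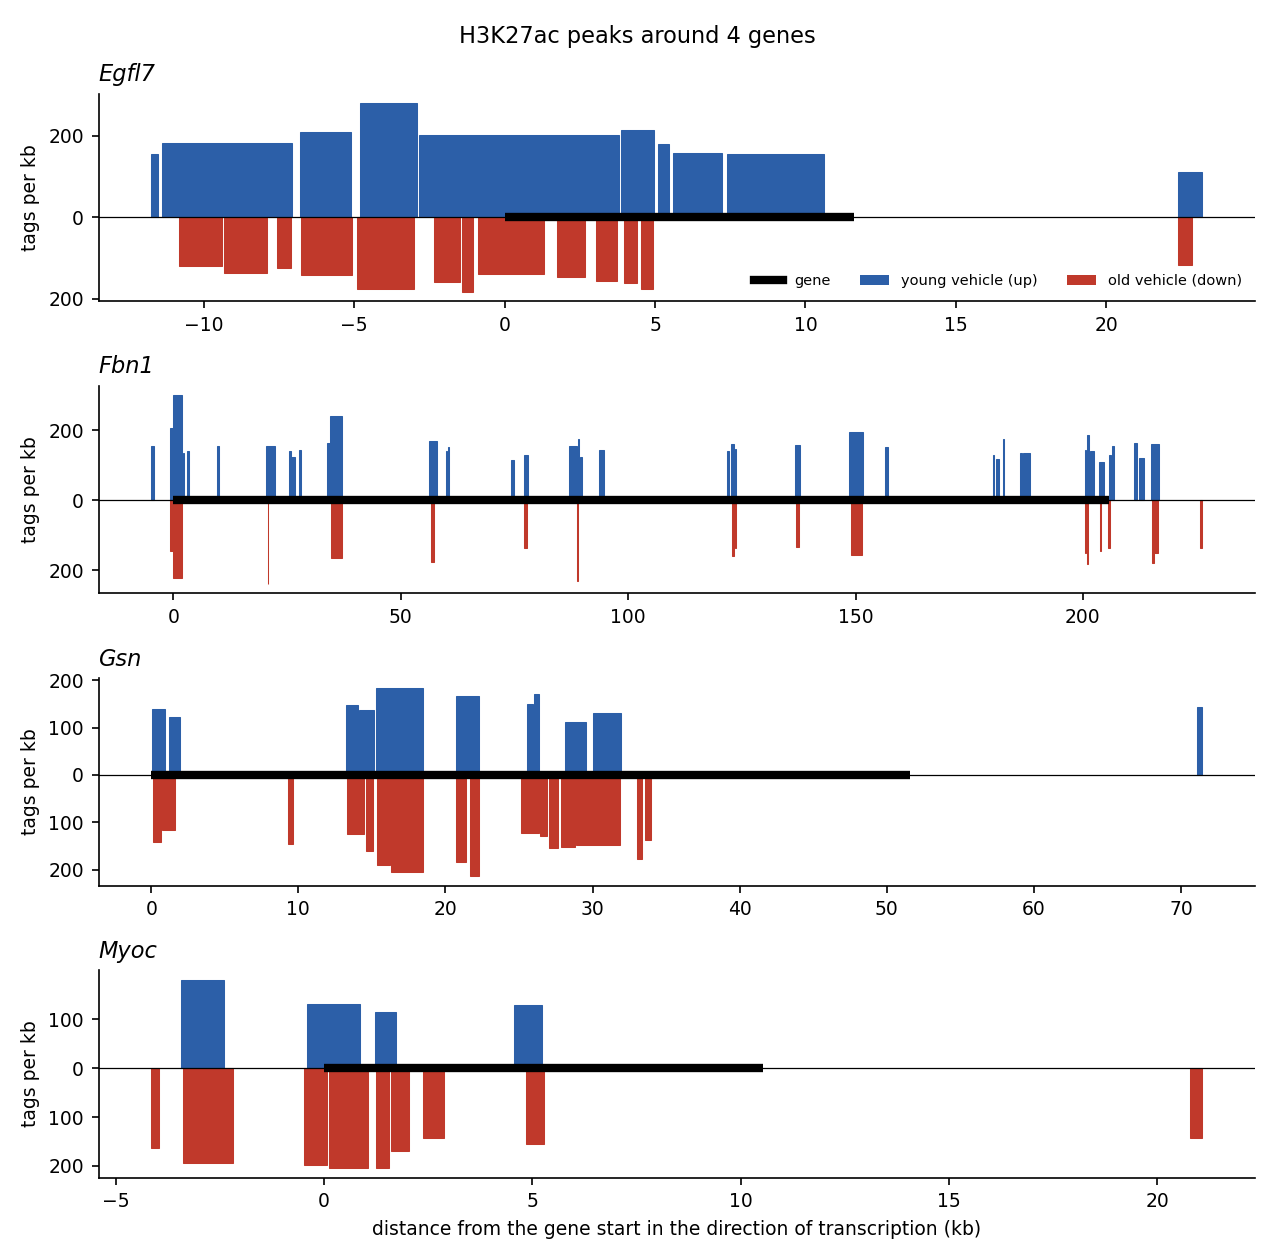
Peaks around Egfl7, Fbn1, Gsn and Myoc, as tags per kb of peak (y axis, not scaled between libraries) in young vehicle (blue, upward) and old vehicle (red, downward) against distance from the most upstream listed start in kb; the black bar is the gene. Fbn1 has many young peaks without an old counterpart (26 of 42 regions lost), whereas Gsn has old peaks at places without a young one (5 of 11 regions gained). The genes were chosen after their values were seen.

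Genes of FAP identity held their signal relative to other genes. Of 13 listed genes in the stretch, 12 had peaks, and 10 of these 12 lay above the median of all windows; the list median was 0.05. Gsn was highest, with 1844 young and 2317 old tags (0.92 ± 0.05). Fgf7, a growth factor of mesenchyme for epithelium, held 1747 and 1538 (0.40 ± 0.05), and the matrix gene Dpt 1724 and 1216 (0.08 ± 0.05). Cd34, a surface antigen of progenitors, held 4055 and 2459 (-0.13 ± 0.04). Below the median were Prrx1, a homeobox factor of limb mesenchyme, with 3688 and 1842 (-0.41 ± 0.04), and Twist2, with 350 and 153 (-0.61 ± 0.14). None of the 12 passed 2-fold. The remaining listed gene, Sfrp2, had no peak in either library. Pdgfra, the usual surface marker of FAPs, lies outside the stretch. Peaks at these 12 genes do not check the labelled cell type, since 11 of 14 endothelial genes had peaks too.

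Of the collagen genes, 5 of 7 compared were below 0, with a median of -0.28. Over all windows 70.5% were below 0, so this share is near the background, and the list median was -0.11 from that of all windows. Col3a1 held 3917 young and 1424 old tags (-0.87 ± 0.04) and its neighbour Col5a2 2488 and 924 (-0.84 ± 0.06), with 14 of 18 regions lost. Among all young regions 43.2% were lost. Col5a1 held 4904 and 2690 (-0.28 ± 0.03), whereas Col6a3, a chain of microfibrillar type VI collagen, held 3193 and 2259 (0.09 ± 0.04). Glycoproteins and proteoglycans had a median of 0.21, and 9 of 16 were above 0. Ccn5, a matricellular gene, held 223 and 267 (0.85 ± 0.13), and the proteoglycan gene Prelp 1778 and 1570 (0.41 ± 0.05). Olfml3 held 929 and 824 (0.41 ± 0.07) and Ecm1 446 and 391 (0.40 ± 0.10). Against these stood Postn, the gene of periostin, a matricellular protein of injured tissue, with 670 and 131 (-1.77 ± 0.14), and Fbn1 with 5717 and 2012 (-0.92 ± 0.04). The laminin gene Lamc1 held 7705 and 3789 (-0.44 ± 0.03).

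Remodelling and adhesion genes had a median of -0.03. Adam33, a metalloprotease gene, held 700 young and 794 old tags (0.77 ± 0.07) and Ctsk, cathepsin K, 325 and 291 (0.43 ± 0.12). The integrin genes Itga6 (1188 and 295, -1.42 ± 0.09) and Itgb6 (483 and 153, -1.07 ± 0.13) were the list's 2 windows past 2-fold. Cd44 held 3002 and 1429 (-0.48 ± 0.05).

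Of the genes of TGF-beta and BMP signalling, 8 of 10 lay below 0, against 70.5% of all windows, with a median of -0.25. The difference from the median window was -0.08 and changed side with tags of overlapping regions only, to 0.01. Eng, the co-receptor endoglin, held 4045 and 1671 tags (-0.69 ± 0.04), the BMP receptor gene Acvr1 1137 and 540 (-0.49 ± 0.08) and the target gene Id1 1957 and 1006 (-0.37 ± 0.06). The ligand gene Tgfb2 held 1481 and 1009 (0.03 ± 0.06). In the Notch pathway the ligand gene Dll4 held 1488 and 505 (-0.97 ± 0.07), the receptor gene Notch1 3140 and 1084 (-0.95 ± 0.05) and the target gene Hey1 573 and 177 (-1.11 ± 0.12). The receptor gene Notch2 held 2557 and 1865 (0.13 ± 0.04) and the Wnt receptor gene Fzd7 960 and 932 (0.55 ± 0.07). Vangl1, a planar polarity gene, was lowest of that list with 418 and 83 (-1.74 ± 0.17). Notch1 and Dll4 also stand in the endothelial list, as does Eng.

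Endothelial genes were the lowest of the lists with at least 5 genes compared. All 10 windows lay below the median of all windows, with a list median of -0.53 and a range from -0.97 to -0.19, and none passed 2-fold. Sox18, an endothelial transcription factor gene, held 2853 and 1212 tags (-0.65 ± 0.05) and Sox17 1440 and 657 (-0.54 ± 0.07). Cd93 held 2215 and 1042 (-0.50 ± 0.05), the thrombomodulin gene Thbd 1028 and 479 (-0.51 ± 0.08) and Egfl7 3805 and 1796 (-0.50 ± 0.04). The protein C receptor gene Procr had 139 young tags and no old peak. Of 14 endothelial genes in the stretch, 11 had peaks, and the selectin genes Sele and Selp of activated endothelium had none at either age. The list's windows summed to 21702 young and 9224 old tags. In a sorted population, fewer cells of a type and less of the mark per cell cannot be told apart.

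Windows of macrophage genes went the other way. Of 10 compared, 8 lay above 0, with a median of 0.24. The sialoadhesin gene Siglec1 held 875 young and 928 old tags (0.67 ± 0.07) and Sirpa 2017 and 1869 (0.48 ± 0.05). The window of Siglec1 overlaps that of the remodelling gene Adam33 (700 and 794 tags), so both may count the same peaks. Below 0 were Mertk, a receptor for apoptotic cells, with 1212 and 486 (-0.73 ± 0.08), and Fcer1g, with 247 and 115 (-0.52 ± 0.16). A start peak at both ages was found for 2 genes of the list, though some of its genes have no listed start. With a flank of 2000 bp 5 windows could be compared, so part of the signal lies in flanks and may belong to neighbouring genes. The leukocyte gene Ptprc (CD45), Cd53, Ctss and Il1b had no peak at either age, and Spi1 had one in old only. The macrophage windows summed to 7043 young and 5699 old tags. Lymphocyte genes had a median of 0.05 over 10 windows and those of pericytes and smooth muscle 0.25 over 6. What part other cell types in the sort have in the matrix and Notch values was not tested.

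Of 18 cell cycle genes with peaks, 5 had them in young only, against 7.86% of all windows with peaks. These were Bub1, Mcm3, Oip5, Tpx2 and Ube2c, with 35 to 147 tags. Of young regions under 50 tags 89.4% had no old peak, and of those with 50 to 99 tags 70.7%. The 7.86% is taken over windows of all strengths and is no like background for such weak ones. Of the 13 compared, 11 lay below 0, against 70.5% of all windows, and the median was -0.30; the housekeeping list gave 30 of 33 and -0.24. E2f1, a factor of entry into S phase, held 571 and 183 tags (-1.05 ± 0.12), the helicase gene Mcm6 207 and 72 (-0.94 ± 0.20) and the condensin gene Smc4 1284 and 458 (-0.90 ± 0.08). The members above 0 were Cks1b, with 2187 and 1485 (0.03 ± 0.05), and Cdc25b, with 1059 and 969 (0.46 ± 0.06) and the old-only start peak shown above.

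The list of senescence genes and secreted products of senescent cells had a median of 0.00, with 12 of 17 above the median of all windows and 8 above 0. Atf3 held 394 and 441 tags (0.75 ± 0.10), the transcription factor gene Cebpb 882 and 896 (0.61 ± 0.07) and the survival gene Bcl2 599 and 572 (0.52 ± 0.08). Ptges, a prostaglandin E synthase gene, held 923 and 857 (0.48 ± 0.07) and the lamin A gene Lmna 5601 and 4564 (0.29 ± 0.03). E2f1 and the antiproliferative gene Btg2 (1395 and 679, -0.45 ± 0.07) were at the low end. Il1a had no start peak, and its value equals that of its neighbour Ckap2l (375 and 203 tags), since both windows hold the same peaks. Il1b, Mmp9 and Cxcr2 had no peak at either age. Interferon and innate sensing genes had a median of -0.02, with 13 of 17 above the median of all windows. The toll-like receptor gene Tlr2 held 136 and 146 (0.69 ± 0.17) and the paralogous sensors Ifi207 and Ifi204, whose similar reads may be shared, 607 and 647 (0.68 ± 0.08) and 939 and 876 (0.49 ± 0.07).

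Adipogenic and lipid genes spread widely around a median of -0.15. Hsd11b1 held 234 and 322 tags (1.05 ± 0.12), and its start regions included the gained one described above. The lipid-binding genes Fabp4 (1713 and 665, -0.78 ± 0.07) and Fabp5 (167 young tags, no old peak) and the acyltransferase gene Agpat2 (1512 and 408, -1.30 ± 0.08) were low. Agpat2 lies next to Egfl7 and shares its lost region. Growth factor and receptor genes had a median of -0.17, from Epha4 (749 and 226, -1.14 ± 0.11) to the tissue factor gene F3 (672 and 661, 0.56 ± 0.08). Mesenchymal transcription factor genes had one of -0.22 and acetylation enzyme and chromatin genes one of -0.13, with Asxl1 lowest (1143 and 448, -0.76 ± 0.08). Hoxd genes had a median of -0.41 over 5 windows that lie in 1 cluster and share peaks. The 33 housekeeping genes, given as a reference, all had peaks at both ages and a median of -0.24, from -0.94 to 0.16. Immediate early and stress genes had a median of -0.10 over 15 windows.

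**Figure D4:**
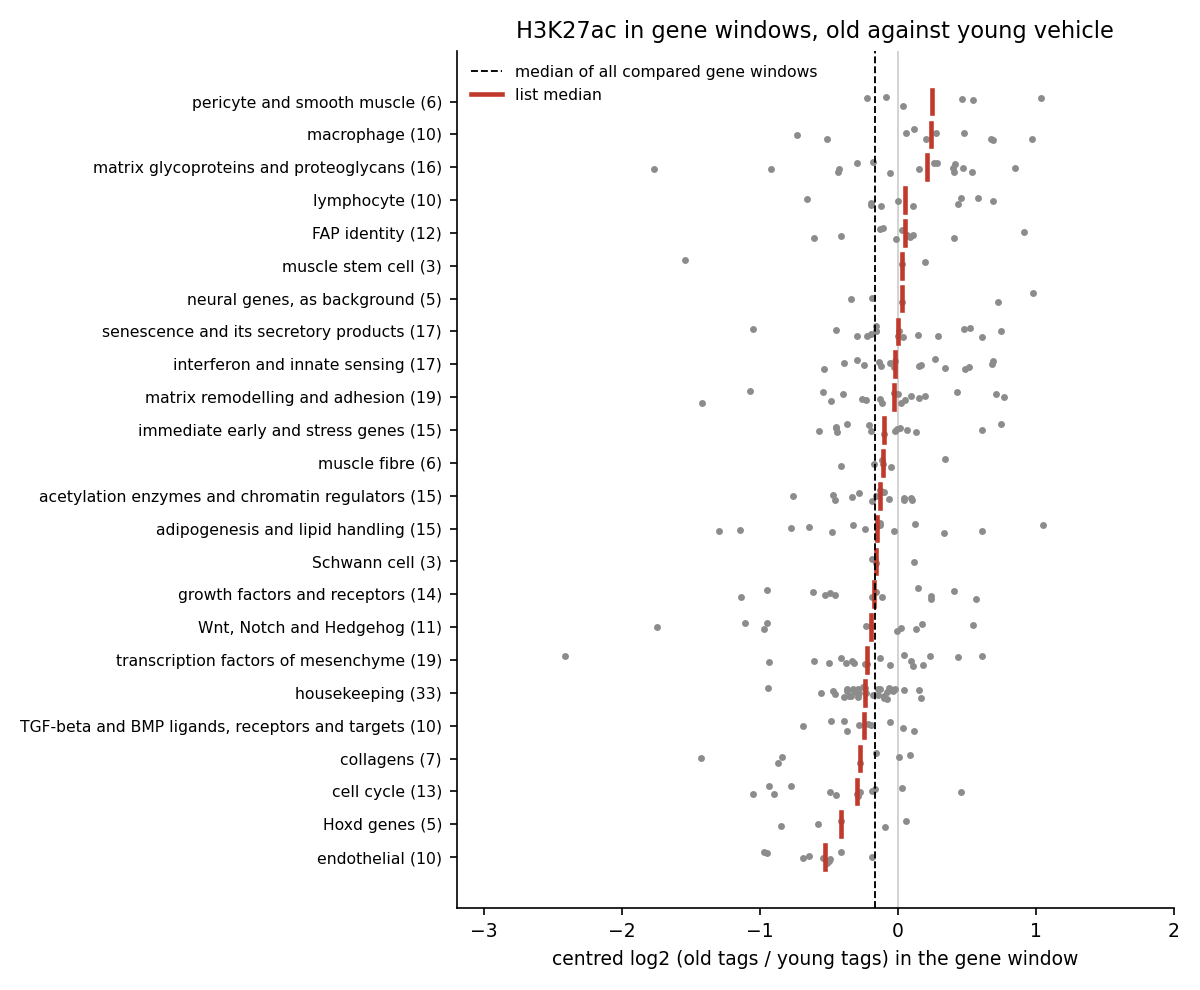
Centred log2 ratio of tags in the gene window (x axis) for each compared member (grey points) of every list with at least 3 members compared (number in brackets), with the list median in red. The dashed line is the median of all 2138 windows, -0.17; the endothelial list lies wholly below it, and the lists of pericyte, macrophage and glycoprotein genes have medians of 0.25, 0.24 and 0.21.

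The TSA libraries of the same mark are other samples of the same ages, and their comparison shares no library with this one. At the 57 higher regions with a peak in both TSA libraries, 52 had a ratio of old TSA to young TSA above that contrast's own median over shared regions, with a median of 0.57. This was so for 50.4% of the 3656 regions within 2-fold and for 51 of 179 lower regions, whose median was -0.24. Of the 336 gained regions, 63.1% (57.7 to 68.3) had a peak in old TSA and 17.3% (13.4 to 21.7) in young TSA. Of the 3341 lost regions, 44.4% (42.7 to 46.1) had a peak in old TSA and 37.4% (35.8 to 39.1) in young TSA. For shared regions within 2-fold these shares were 96.6% and 91.2%, and the old TSA list is the longer one, with 7571 against 5945 peaks in the stretch. With a peak in both TSA libraries, 391 of 868 lost regions (45.0%) lay above that contrast's median, with a median of -0.06. Among gained regions 41 of 53 did, with a median of 0.33. Across 3892 shared regions the Spearman correlation between both contrasts was 0.517, and across 2109 windows 0.435. The regions are not independent, and both measures depend on called peak length.

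In H3K9/14ac of the vehicle libraries, which could be compared on chromosome 1 and on chromosome 2 up to position 167064301, 14 of 17 higher regions lay above the median, with a median of 0.39. Of 36 lower regions 18 did, and of the 1519 within 2-fold 689 (45.4%). Among lost regions 144 of 255 (56.5%) lay above the median, and among gained ones 16 of 23. The correlation across 1572 shared regions was 0.198. H3K9/14ac peaks of the old library were present at 35.2% (25.3 to 46.1) of higher, 32.1% (25.1 to 39.8) of lower and 58.3% (56.5 to 60.1) of the other shared regions. For the young library these shares were 21.6% (13.5 to 31.6), 27.9% (21.2 to 35.4) and 54.7% (52.8 to 56.5). The 17 higher regions compared are thus part of 88 in that stretch, and the 36 lower ones part of 165.

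**Figure D5:**
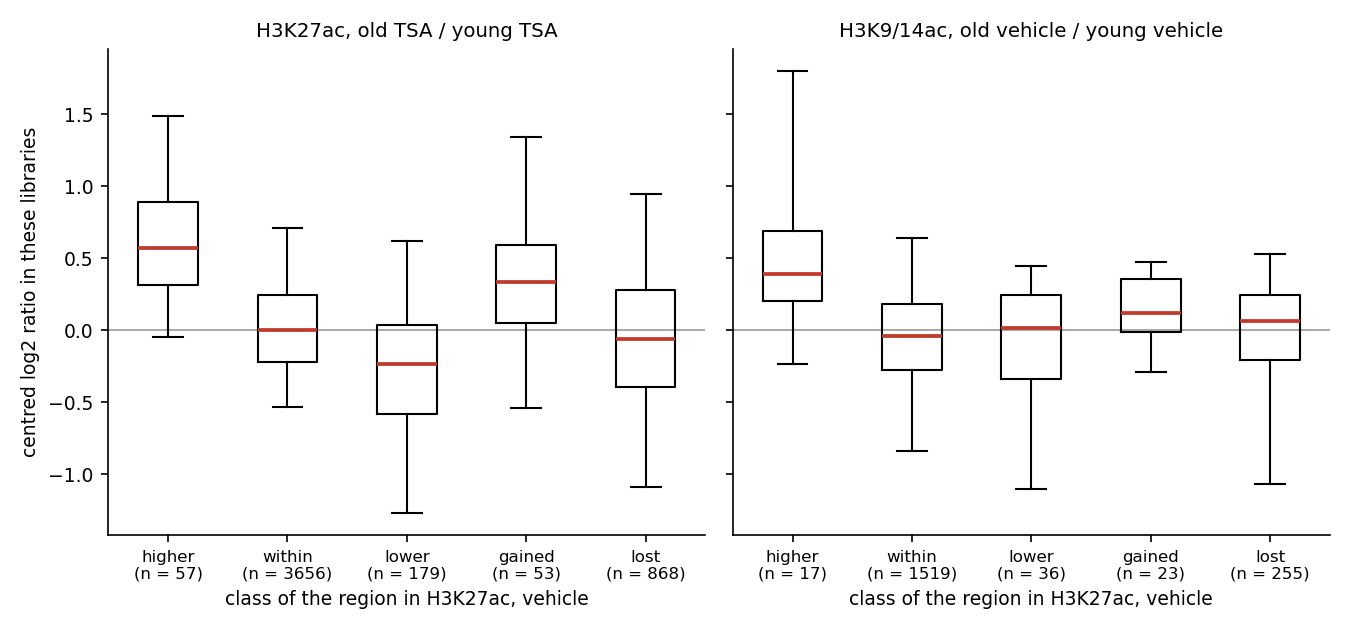
Centred log2 ratio of old to young tags (y axis) in the TSA libraries of H3K27ac (left) and the vehicle libraries of H3K9/14ac (right), for regions grouped by their class in the vehicle comparison of H3K27ac. Boxes are quartiles with the median in red and whiskers reach the 5th and 95th percentiles; only regions with a peak in both plotted libraries enter, and higher regions have medians of 0.57 and 0.39.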

How the data were processed

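Tag counts per peak were deposited by the authors as whole numbers in HOMER peak lists, 1 list per library. Per the file headers, each library was set against itself and tags were counted on both strands over the given peak sizes; no scaling is recorded, and the counts were taken as raw. The submitters' processing notes name Bowtie 0.12.7, TopHat2 2.0.9, HTSeq 0.6.1p1, DESeq2, MACS2, HOMER and build GRCm38, without assigning steps. Each list as used here breaks off in 1 incomplete line, which was dropped. Input libraries were not used here.

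Peaks were joined into regions, tags compared as centred log2 ratios (shared regions needed 50 tags in both libraries together, windows 100), and shares given exact Clopper-Pearson intervals, in Python 3.11.15 with pandas 2.3.3, numpy 2.4.6 and scipy 1.17.1. Intervals and standard errors cover counting error only, and tags are not all independent molecules. Gene positions and promoters came from RefSeq tables of GRCm38.p6; for 600 genes without a listed start, both annotated ends served when regions were classed. The joining and fold steps were run on simulated lists for this comparison: of 200 regions changed by 4-fold among 6364, 100% of the higher and 100% of the lower ones were called. In the simulation changed peaks were never dropped, peak ends were kept and no peak-calling threshold was applied. It therefore checks the code only and cannot show how changes in called length or lost peaks affect the real comparison.

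The members, the 25 gene lists (540 names, all matched to RefSeq, 390 in the stretch) and the tests were chosen with earlier results of these data known. Named genes are list members with a peak, the 15 highest and 15 lowest shared regions, the 15 lost and 15 gained regions with most tags, and the 15 windows at each end, leaving out windows that share peaks with one already named; genes singled out for many regions, and the printed promoters, were chosen after their values were seen. Alternatives were other overlaps, centrings, folds, flanks, minimum tags and list lengths. Some results are not reported here.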

Additional observations from a re-analysis of the deposited data

Results flagged for a closer look

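Old and young differed in opposite directions with vehicle and with TSA in 5 of the 2109 gene windows compared in both treatments, each by more than 2-fold. All 5 were lower in old with vehicle and higher in old with TSA; the difference between the treatments was not tested, and each side rests on 1 library per age. Hmcn1, which encodes the extracellular protein hemicentin-1, had a centred value of -1.93 with vehicle (409 young and 71.3 old tags) and 2.05 with TSA (72 and 304). Mgarp had -1.84 (110 and 20.5 tags) and 1.26 (52.4 and 128), but the edge of its window cuts through peaks. Ctnnbl1 had -1.28 (190 and 52) and 1.29 (81 and 201). Traf1, an adaptor gene of tumour necrosis factor receptors, had -1.17 (172 and 51) and 1.20 (42 and 98). Dnajc5b had -1.16 (144 and 43) and 2.01 (55 and 226).

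The collagen list lay on opposite sides of the median of all windows, by -0.11 with vehicle and by 0.40 with TSA, over 7 genes each; this difference was not tested either. Col3a1 had centred values of -0.87 and 0.31, Col5a2 -0.84 and 0.67, Col5a1 -0.28 and 0.35, Col4a4 -1.43 and 0.86, and Col6a3 0.09 and 0.48. The other 2 went the opposite way, Col4a3 from -0.16 to -0.60 and Col9a3 from 0.01 to -0.48.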

How the results depend on the processing

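No paired analysis was possible because each age has 1 library; for the same reason no replicate could be left out. Of 41 alternative values of the counts, shares and the median ratio, 22 stayed within 1.5 times the count, or within counting error of the value. Keeping the upper 50% of peaks by tags gave 1429 lost and 111 gained regions and a median ratio of -0.60, and lists of equal length gave 1556, 647 and -0.61. With total-tag centring 226 shared regions were higher and 133 lower, and 78 windows were lower. At 1.5-fold 457 were higher and 551 lower, and at 3-fold 13 and 58. Among regions whose called lengths differed by under 1.5-fold, an alternative chosen after seeing the data, 50 were higher and 0 lower; tags scale with length, so this filter itself removes lower regions and supports nothing. With tags of overlapping regions only, 34 windows were lower in place of 142. Within 2500 bp, start sites held 49.2% of shared, 18.3% of lost and 20.8% of gained regions.

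Of 24 list medians, 15 stayed on the same side of the median of all windows under a flank of 2000 bp, overlapping regions only and lists of equal length, as far as each could be computed. The endothelial difference ranged from -0.48 to -0.23 and the macrophage difference from 0.30 to 0.69. The collagen difference ranged from -0.68 to -0.04. The other 9, among them TGF-beta and BMP, Wnt, Notch and Hedgehog, adipogenesis and mesenchymal transcription factors, changed side under at least 1 of these. Weak regions were lost most often: 1076 of the 3341 lost regions had under 50 young tags and 1561 had 50 to 99; whether depth or the mark sets this cannot be told apart.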
